A study of Mus musculus with 4 samples.

Results

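Purinergic and adenosine signalling was described through 10 genes: the ATP-gated channels P2rx4 and P2rx7, the nucleotide receptors P2ry2, P2ry6, P2ry13 and P2ry14, the adenosine receptors Adora2a and Adora2b, and the enzymes Entpd1 and Ada. They were taken by gene name from the non-control probes of the arrays, which carry 37074 named genes and transcripts, and 20 probes matched. Messenger RNA was measured in RAW264.7, a mouse macrophage cell line, on 4 one-colour arrays with 1 array a group. The groups were Mfp2-/- cells stimulated with lipopolysaccharide (LPS), naive cells stimulated with LPS, Mfp2-/- cells without LPS and naive cells without LPS. LPS, from the outer membrane of Gram-negative bacteria, is the standard ligand of Toll-like receptor 4. Mfp2, the product of Hsd17b4, is a multifunctional enzyme of the peroxisome, and the naive cells are labelled wild type. How much LPS was used and for how long, how Mfp2-/- cells were made and whether they are 1 clone is not given in the sources used here.

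Cells release ATP and other nucleotides when they are activated or damaged, and P2 receptors on neighbouring cells detect them. P2X receptors are ion channels opened by ATP, whereas P2Y receptors couple to G proteins. Surface enzymes such as Entpd1 (CD39) degrade the nucleotides, adenosine forms from the products, and adenosine receptors and adenosine deaminase (Ada) sense and remove it. In macrophages, P2rx7 is best known for its link to inflammasome activation, and Adora2a and Adora2b for raising cyclic AMP and restraining inflammatory output.

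Unless said otherwise, values are the scanner's processed signal on a log2 scale minus the 75th percentile of its array. This is called the scaled level here, so 0 is the signal of a fairly bright probe. Each probe has its own hybridisation strength, and no probe's level is set against another's. A difference of at least 2-fold counted as higher or lower, and pairs of single arrays carry no p-value. A dim probe is one not well above background by the scanner's flag. Where 1 of 2 arrays was dim, the fold is a bound, written "at least", with the dim array set to its own signal or to its lowest signal above background, whichever was higher. Repeated spots of single probes put the technical SD of a log2 difference at 0.12 to 0.15, and this leaves out differences between cultures. Since each group is 1 array, no difference between groups has a replicate check, and precision is limited by the number of arrays.

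On each array 47.4% to 49.7% of spots were well above background, and 0 were saturated. All 12 macrophage markers were well above background on all 4 arrays, and their summed scaled signal was 901, 954, 754 and 747 in LPS-treated Mfp2-/-, LPS-treated naive, untreated Mfp2-/- and untreated naive cells. Of 5 T cell markers, 3 (Cd3e, Cd4 and Lck) were above background, with sums of 8.76, 6.67, 3.34 and 2.95 in the same order, while Cd3g and Cd8a were not above it on any array. Of 4 markers each, 2 of B cells (Ms4a1 and Pax5), 1 of epithelium (Cdh1), 0 of fibroblasts, 2 of endothelium (Pecam1 and Kdr) and 2 of neutrophils (Elane and S100a8) were above background on at least 1 array, with summed scaled signals of at most 0.57. The part of these cell-type transcripts in the LPS differences was not tested. Hsd17b4 had a scaled level of 1.39 in LPS-treated Mfp2-/- cells and 2.60 in LPS-treated naive cells, and of 2.17 in untreated Mfp2-/- cells and 3.06 in untreated naive cells. It was therefore 2.31-fold lower with LPS and 1.85-fold lower without LPS in the cells labelled Mfp2-/-, and its transcript was still measured there. The labels do not name the disrupted part of the gene, and the probe does not check the protein.

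The probes behind the results are 60-base oligonucleotides. Probe sequences of P2rx7, Adora2b and Ada are shown because the values of P2rx7 differed between its probes, Adora2b had a genotype difference past 2-fold, and Ada was lower with LPS on both of its probes. The printed Adora2b probe is the one that represents its gene, whereas the printed P2rx7 and Ada probes are not. Positions are those of the files in mm9, and the sequences are in lower case throughout.
P2rx7, probe A_51_P506733, chr5:123120528-123123413, plus strand: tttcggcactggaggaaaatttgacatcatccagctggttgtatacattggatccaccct
Adora2b, probe A_52_P419455, chr11:62079096-62079155, plus strand: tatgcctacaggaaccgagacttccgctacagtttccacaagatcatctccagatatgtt
Ada, probe A_66_P118038, chr2:163556042-163556101, minus strand: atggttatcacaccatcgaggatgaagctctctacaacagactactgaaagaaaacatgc
The P2rx7 probe covers 2886 bases of the genome with 60 bases of sequence, so it joins sequences that lie apart in the gene. The other printed probes each lie in 1 unbroken stretch.

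The 250 bases before the annotated start of Ada and before 1 of the 2 starts of P2rx7 are also shown, since these are the members that were lower with LPS. They are RefSeq sequences of GRCm38.p6, and 8 of the 10 genes, with 14 promoters in all, were matched in that table by symbol. Capitals mark the matches to 6 motifs searched on both strands: AP-1 as TGANTCA, CRE as TGACGTCA, GAS as TTCNNNGAA, PU.1 as GAGGAAG, and the IRF and NF-kB motifs.
Ada promoter, chr2:163750240-163750489, minus strand: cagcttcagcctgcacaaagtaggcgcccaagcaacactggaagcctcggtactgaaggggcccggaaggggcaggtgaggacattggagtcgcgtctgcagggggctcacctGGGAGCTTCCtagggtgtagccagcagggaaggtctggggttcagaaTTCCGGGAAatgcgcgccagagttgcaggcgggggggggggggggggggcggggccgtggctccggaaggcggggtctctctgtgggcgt
P2rx7 promoter, chr5:122643677-122643926, plus strand: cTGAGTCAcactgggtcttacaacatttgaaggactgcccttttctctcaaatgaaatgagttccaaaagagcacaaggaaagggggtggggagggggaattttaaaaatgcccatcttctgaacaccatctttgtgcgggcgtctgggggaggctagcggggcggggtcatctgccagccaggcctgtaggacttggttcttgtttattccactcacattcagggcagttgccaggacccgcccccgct
The Ada window held an NF-kB match at -137 to -128 and a GAS match at -90 to -82 from the start, and the printed P2rx7 window an AP-1 match at -249 to -243. The window of the other P2rx7 start, chr5:122650133-122650382, held 0 matches. Among 32851 promoters of the same length, 7.25% held the NF-kB motif, 7.02% GAS and 6.75% AP-1, while 1.55% held CRE, 2.98% IRF and 10.6% PU.1. The windows of P2rx4, P2ry2 and Adora2b held none of the 6 motifs. Matches also lay before starts of genes that were not above background on any array. These were PU.1 for P2ry13 and Entpd1, and AP-1 and PU.1 for P2ry14. The matches describe these letters alone.

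Of the 10 genes, P2rx4, P2rx7, P2ry2, P2ry6, Adora2b and Ada were well above background on all 4 arrays, Adora2a on the LPS-treated arrays alone, and P2ry13, P2ry14 and Entpd1 on none.

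The first comparison asked how each genotype responded to LPS. In Mfp2-/- cells, 4 of the 7 measured genes were at least 2-fold higher with LPS (P2rx4, P2ry2, Adora2a and Adora2b), against 11.1% of all genes tested, and 2 were at least 2-fold lower (P2rx7 and Ada), against 12.4%. In naive cells, the same 4 were higher, against 9.97% of all genes, and the same 2 lower, against 8.39%. In either direction the call was made for 23.5% of all genes in Mfp2-/- cells and 18.4% in naive cells. The median difference of the measured genes was 1.07 in Mfp2-/- cells and 1.40 in naive cells, while that of all genes was 0 and 0.026. The median size, without its sign, was 2.45 in Mfp2-/- cells and 1.74 in naive cells, against 0.48 and 0.40 for all genes. The 10 genes were chosen with earlier results of these data known. Shares and medians set against all genes, here and below, are therefore descriptions and no test of the pathway. RNA came from whole cultures, so fewer cells expressing a gene and less of its RNA per cell cannot be told apart.

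**Figure D1:**
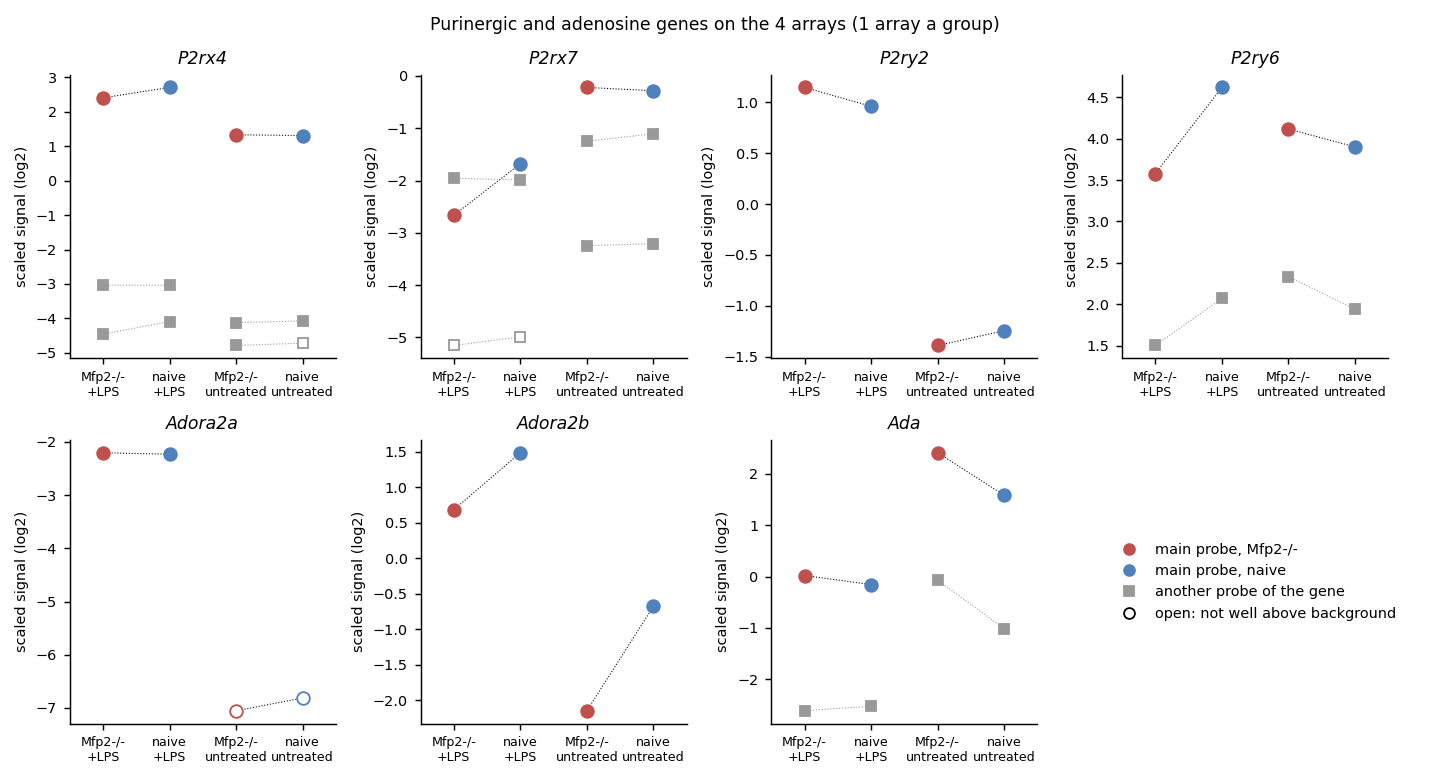
Scaled level (log2, y axis) of the 7 genes with signal above background in the 4 groups (x axis, 1 array each). Circles are the probe that represents the gene, in red for Mfp2-/- and blue for naive cells, grey squares are other probes of the gene with signal above background, and open symbols are not well above background. Adora2a is open on both untreated arrays at scaled levels of -7.05 (Mfp2-/-) and -6.81 (naive).

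Both ATP-gated channels differed with LPS, in opposite directions. P2rx4, a channel with a large intracellular pool in macrophages, had a scaled level of 2.41 in LPS-treated Mfp2-/- cells, 2.71 in LPS-treated naive cells, 1.33 in untreated Mfp2-/- cells and 1.31 in untreated naive cells. It was highest in LPS-treated naive cells, and the untreated levels of the 2 genotypes differed by less than the technical SD. With LPS, P2rx4 was 2.10-fold higher in Mfp2-/- cells and 2.63-fold higher in naive cells. The Mfp2-/- difference was under 2-fold, at 0.83, with spike-in centring and with the mean of probes. A second probe, in the same gene at chr5:123159750-123159809, gave differences of 1.09 in Mfp2-/- cells and 1.03 in naive cells. Its untreated levels, -4.12 in Mfp2-/- and -4.07 in naive cells, lay near the lowest signal above background. That signal was -4.81 and -4.59 on these arrays, so the differences of the second probe are less certain. Another probe, also near background, at chr5:123179545-123179604, was 1.26-fold higher in Mfp2-/- cells and at least 1.41-fold higher in naive cells.

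P2rx7, the channel that opens a large pore under sustained ATP, was represented by a probe at chr5:123134194-123134253. Its scaled level was -2.67 in LPS-treated Mfp2-/- cells, -1.68 in LPS-treated naive cells, -0.22 in untreated Mfp2-/- cells and -0.28 in untreated naive cells. Both LPS-treated arrays lay below both untreated arrays, and the untreated genotypes were within the technical SD of each other. P2rx7 was 5.45-fold lower with LPS in Mfp2-/- cells and 2.63-fold lower in naive cells. Normexp background correction changed the difference in Mfp2-/- cells to -1.65 in place of -2.45, and the mean of the gene's probes gave -1.69. A probe for another transcript variant, at chr5:123105174-123105233, was at -1.96 in LPS-treated Mfp2-/- cells, -1.99 in LPS-treated naive cells, -1.25 in untreated Mfp2-/- cells and -1.11 in untreated naive cells. Its differences with LPS, -0.71 in Mfp2-/- cells and -0.88 in naive cells, were in the same direction and under 2-fold. The probe printed above was not well above background on either LPS-treated array and was at -3.25 in untreated Mfp2-/- cells and -3.21 in untreated naive cells, at least 2.47-fold lower with LPS in Mfp2-/- cells and at least 2.36-fold lower in naive cells. All 3 probes were thus lower with LPS in both genotypes, by different amounts.

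P2ry2, a receptor for ATP and UTP, had a scaled level of 1.15 in LPS-treated Mfp2-/- cells, 0.96 in LPS-treated naive cells, -1.39 in untreated Mfp2-/- cells and -1.24 in untreated naive cells (chr7:108145553-108145612). The LPS-treated arrays were above the untreated ones in both genotypes. P2ry2 was 5.80-fold higher with LPS in Mfp2-/- cells and 4.61-fold higher in naive cells. Its other probe was not well above background on any array.

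P2ry6, the receptor for UDP, differed with LPS in opposite directions in the genotypes on its representing probe. Its scaled level was 3.58 in LPS-treated Mfp2-/- cells, 4.62 in LPS-treated naive cells, 4.12 in untreated Mfp2-/- cells and 3.90 in untreated naive cells (chr7:108086152-108086211). LPS-treated naive cells had the highest level and LPS-treated Mfp2-/- cells the lowest. The difference with LPS was -0.54 in Mfp2-/- cells and 0.72 in naive cells, both under 2-fold and beyond the technical SD. A second probe, at chr7:108112251-108112310, gave -0.83 in Mfp2-/- cells and 0.13 in naive cells. For this probe the naive difference was about as large as the technical SD of 0.13.

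The ADP receptor P2ry13 and the UDP-glucose receptor P2ry14 were not measured. Their 3 probes were not well above background on any array. P2rx4 and P2rx7 are neighbours with 0 coding genes between them in the GRCm38.p6 annotation, and so are P2ry2 and P2ry6. Neighbouring genes therefore differed with LPS in opposite directions in the case of P2rx4 and P2rx7.

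Both adenosine receptors were higher with LPS. Adora2a, the high-affinity receptor coupled to cyclic AMP production, had a scaled level of -2.20 in LPS-treated Mfp2-/- cells and -2.23 in LPS-treated naive cells (chr10:74797461-74797520). On the untreated arrays it was not well above background, with processed signals of 4.26 in Mfp2-/- and 4.79 in naive cells, against 101 in LPS-treated Mfp2-/- and 102 in LPS-treated naive cells. With LPS it was at least 6.09-fold higher in Mfp2-/- cells and at least 5.13-fold higher in naive cells. Normexp correction lowered the bound on the log2 scale to 1.37 in place of 2.61 in Mfp2-/- cells, and to 1.17 in place of 2.36 in naive cells.

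Adora2b, the lower-affinity receptor of the same class, had a scaled level of 0.68 in LPS-treated Mfp2-/- cells, 1.49 in LPS-treated naive cells, -2.15 in untreated Mfp2-/- cells and -0.68 in untreated naive cells. Within each treatment the Mfp2-/- array was the lower one. Adora2b was 7.13-fold higher with LPS in Mfp2-/- cells and 4.49-fold higher in naive cells.

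Of the enzymes, Ada, which converts adenosine to inosine, was lower with LPS. Its scaled level was 0.02 in LPS-treated Mfp2-/- cells, -0.15 in LPS-treated naive cells, 2.41 in untreated Mfp2-/- cells and 1.58 in untreated naive cells (chr2:163552581-163552640). Untreated Mfp2-/- cells had the highest level, and the LPS-treated arrays lay close together. Ada was 5.24-fold lower with LPS in Mfp2-/- cells and 3.33-fold lower in naive cells. The probe printed above gave -2.61 in LPS-treated Mfp2-/- cells, -2.52 in LPS-treated naive cells, -0.07 in untreated Mfp2-/- cells and -1.01 in untreated naive cells, and was 5.83-fold lower with LPS in Mfp2-/- cells and 2.85-fold lower in naive cells. Entpd1, the surface enzyme that degrades ATP and ADP, was not well above background on any array for any of its 3 probes.

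**Figure D2:**
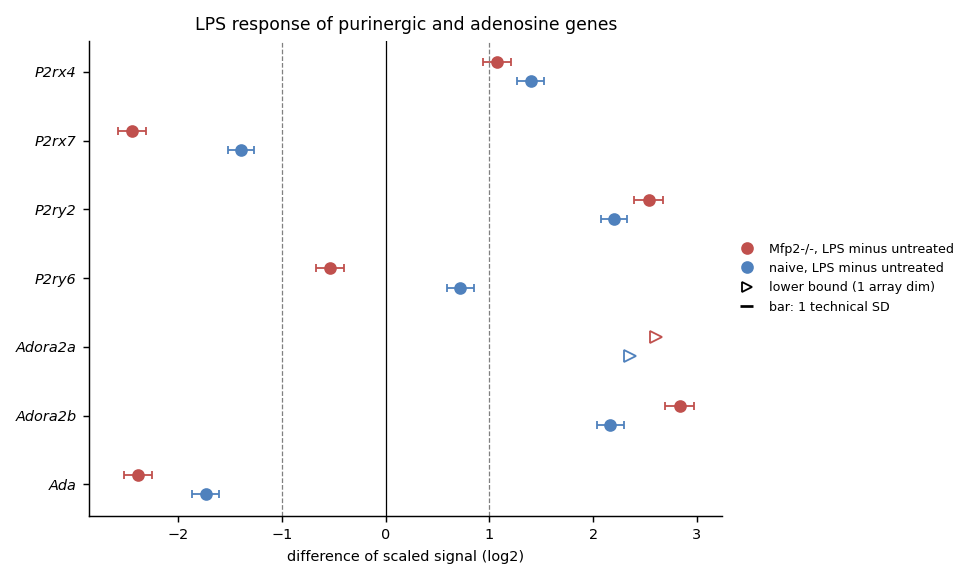
Difference of scaled level with LPS minus untreated (log2, x axis) for the 7 measured genes, in Mfp2-/- cells (red) and naive cells (blue). Bars are 1 technical SD from repeated spots, triangles are lower bounds, and dashed lines mark 2-fold; P2ry6 lies at -0.54 in Mfp2-/- cells and 0.72 in naive cells.

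The additive limma fit used all 4 arrays with genotype and LPS as terms, so that the 2 genotypes stood in for replicates of LPS. It has 1 residual degree of freedom a gene and counts a difference between the responses as noise. For the LPS term, 6 of the 7 genes passed a Benjamini-Hochberg adjusted p of 0.05, 4 higher and 2 lower, against 21.7% of all 17377 genes tested (11.1% higher and 10.6% lower). P2ry2 rose by 2.37 ± 0.15 on the log2 scale (SE, limma adjusted p = 0.026). Adora2b rose by 2.50 ± 0.23 (SE, limma adjusted p = 0.030) and P2rx4 by 1.24 ± 0.15 (SE, limma adjusted p = 0.034). Ada fell by 2.06 ± 0.22 (SE, limma adjusted p = 0.031) and P2rx7 fell by 1.92 ± 0.33 (SE, limma adjusted p = 0.047). Adora2a passed as well (limma adjusted p = 0.026), with an estimate that uses dim values and is no bound. P2ry6, with opposite signs in the genotypes, had an LPS term of 0.09 ± 0.38 (SE, limma adjusted p = 0.86). P2rx7 was the called gene nearest the threshold, and over the alternatives its adjusted p lay between 0.012 and 0.046.

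The second comparison asked how Mfp2-/- cells differed from naive cells under each treatment. These differences use the same 4 arrays as the LPS responses. With LPS, 1 of the 7 measured genes was at least 2-fold lower in Mfp2-/- cells (P2ry6), against 4.64% of all genes, and 0 were higher, against 1.67%. Without LPS, 1 of 6 was lower (Adora2b), against 4.05%, and 0 were higher, against 3.01%. Either call was made for 6.31% of all genes with LPS and 7.06% without. The median difference of the measured genes was -0.30 with LPS and 0.04 without, against 0.0077 and 0.023 for all genes.

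P2ry6 was 2.06-fold lower in LPS-treated Mfp2-/- cells than in LPS-treated naive cells, and its second probe 1.48-fold lower. The mean of both probes was at -0.80, under 2-fold. Without LPS the P2ry6 differences were 0.22 and, on the second probe, 0.40. P2rx7 was just under the threshold with LPS at 1.98-fold lower, and differed by 0.06 without LPS. Its difference with LPS was -0.52 under normexp and -0.37 under the mean of probes. That mean includes the P2rx7 probe printed above, which was dim on both LPS-treated arrays. The P2rx7 probe for the other transcript variant was 1.02-fold higher in LPS-treated Mfp2-/- cells, so the lower P2rx7 level with LPS was not seen on it.

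Adora2b was lower in Mfp2-/- cells under both treatments, by 2.77-fold without LPS and 1.74-fold with LPS. These values rest on 1 probe, and normexp changed the untreated difference to -1.09 in place of -1.47. Ada was 1.78-fold higher in untreated Mfp2-/- cells, and 1.92-fold on its second probe, while with LPS its differences were 0.18 and -0.09. For P2rx4 the differences were -0.30 with LPS and 0.02 without, and for P2ry2 0.19 and -0.15. Adora2a differed by 0.03 with LPS. On these representing probes, the Adora2b and Ada differences without LPS and the Adora2b, P2rx7, P2ry6 and P2rx4 differences with LPS exceeded 2 technical SDs.

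**Figure D3:**
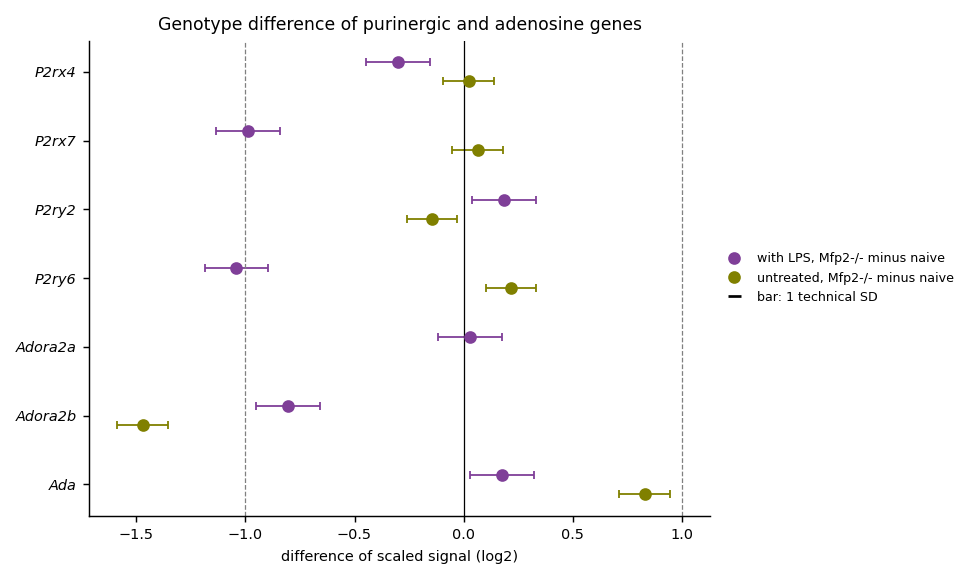
Difference of scaled level Mfp2-/- minus naive (log2, x axis) with LPS (purple) and untreated (olive) for the 7 genes, 1 array a group. Bars are 1 technical SD and dashed lines mark 2-fold; Adora2b is at -0.80 with LPS and -1.47 untreated, and Adora2a, dim on both untreated arrays, has no untreated value.

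For the genotype term the limma fit called 0 of the 7 genes and 0% of all genes at an adjusted p of 0.05. At an unadjusted p under 0.05 it gave 1 of the 7 and 1688 of the 17377 genes. The gene was Adora2b, at -1.14 ± 0.23 (SE, limma adjusted p = 0.37). Over the alternatives the adjusted p of Adora2b lay between 0.14 and 0.39. Ada was at 0.50 ± 0.22 (SE, limma adjusted p = 0.59), and the other 5 genes had adjusted p-values between 0.67 and 0.97. No other tool was run for this term.

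The difference of the LPS responses, Mfp2-/- minus naive, was at least 1 in size on the log2 scale for 2 of the 6 genes measured on all 4 arrays. Both were negative, P2rx7 at -1.05 and P2ry6 at -1.26, against 2.99% of all genes lower, 1.64% higher and 4.62% in either direction. The P2rx7 call was lost under normexp (-0.605), the mean of probes (-0.335), quantile normalisation and the series table (-0.97 each). The second P2ry6 probe gave -0.96, and the P2rx7 probe for the other variant 0.17. Ada was at -0.65 on 1 probe and -1.03 on the other, Adora2b at 0.67 (0.35 under normexp), P2ry2 at 0.33 and P2rx4 at -0.32. The technical SD of this quantity was 0.19, and with 1 array a group it was not tested.

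The other genes of the pathway were 48 further receptors, enzymes, transporters and release channels, also chosen with earlier results known and all on the array. Of these, 32 were above background on at least 1 array, 20 on all 4 and 16 on none. Those on none included Nt5e (CD73), the enzyme that makes adenosine from AMP, the receptors P2ry1, P2ry12 and Adora1, and the ectonucleotidase Entpd2. In Mfp2-/- cells 5 of 30 measured genes were at least 2-fold higher with LPS, against 11.1% of all genes, and 6 lower, against 12.4%, with a median of -0.07. In naive cells 6 of 28 were higher, against 9.97%, and 3 lower, against 8.39%, with a median of -0.03.

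The enzymes at least 2-fold higher with LPS in Mfp2-/- cells were Pnp, Enpp4 and Ampd3. Pnp, the phosphorylase acting on inosine formed by Ada, had a scaled level of 6.10 in LPS-treated Mfp2-/- cells, 6.41 in LPS-treated naive cells, 3.99 in untreated Mfp2-/- cells and 4.08 in untreated naive cells. Its LPS differences were 2.11 in Mfp2-/- cells and 2.33 in naive cells, opposite in sign to those of Ada. The limma LPS term of Pnp was 2.22 ± 0.13 (SE, adjusted p = 0.026). Enpp4, a surface hydrolase of dinucleotides, differed by 1.49 in Mfp2-/- and 1.55 in naive cells (limma adjusted p = 0.027). Ampd3, an AMP deaminase, differed by 1.20 in Mfp2-/- cells and 0.87 in naive cells (limma adjusted p = 0.040), and Mfp2-/- minus naive cells was 1.59 with LPS and 1.27 without LPS. Another Ampd3 probe differed with LPS by 1.65 in Mfp2-/- cells and 1.31 in naive cells.

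The equilibrative nucleoside transporters Slc29a1 and Slc29a2 fell with LPS, with differences of -1.51 and -1.24 in Mfp2-/- cells and of -1.62 and -1.37 in naive cells (limma adjusted p = 0.027 for Slc29a1 and 0.030 for Slc29a2). Slc29a3 differed by -1.42 in Mfp2-/- cells and -0.40 in naive cells and did not pass (limma adjusted p = 0.13). The concentrative transporter Slc28a2 was dim in untreated cells and at least 3.87-fold higher with LPS in Mfp2-/- cells and at least 4.25-fold higher in naive cells. Its limma adjusted p was 0.026, from a fit that uses the dim values.

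Adora3, an adenosine receptor that inhibits cyclic AMP production, was at -3.38 in LPS-treated Mfp2-/- cells, -1.68 in LPS-treated naive cells, -4.60 in untreated Mfp2-/- cells and -4.09 in untreated naive cells. It was higher with LPS by 1.22 in Mfp2-/- cells and 2.41 in naive cells, and Mfp2-/- minus naive cells was -1.70 with LPS and -0.52 without LPS. Adora3 has 1 probe, and its untreated levels lay near the lowest signal above background. That signal was -4.81 in untreated Mfp2-/- and -4.59 in untreated naive cells, so these Adora3 differences are less certain. Its limma LPS term did not pass (adjusted p = 0.058). P2rx6 was above background in LPS-treated naive cells alone, at least 3.56-fold lower in Mfp2-/- than naive cells with LPS. Its level in naive cells was at least 3.66-fold higher with LPS.

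Among enzymes of nucleotide breakdown, Entpd5 differed with LPS by -1.08 in Mfp2-/- cells and -0.78 in naive cells, and Entpd6 by -1.22 and -0.85. Another Entpd5 probe gave -0.86 in Mfp2-/- cells and -0.97 in naive cells, both under 2-fold. Another Entpd6 probe gave 0.17 in Mfp2-/- cells and -0.10 in naive cells. Xdh, the xanthine dehydrogenase that ends the pathway, was at least 3.64-fold lower with LPS in Mfp2-/- cells and differed by -0.74 in naive cells. Pnp2, a near-copy of Pnp, was at least 2.34-fold lower with LPS in naive cells and differed by -1.13 in untreated Mfp2-/- against naive cells. The Pnp2 probe was dim on both LPS-treated arrays, at -6.50 in Mfp2-/- and -5.67 in naive cells. Those are the arrays with the highest Pnp levels, and shared hybridising sequence was not tested. Dpp4, a cell-surface peptidase, was at least 3.06-fold higher with LPS in naive cells and at least 3.26-fold lower in Mfp2-/- than naive cells with LPS. Entpd8 was at least 2.16-fold higher in Mfp2-/- than naive cells with LPS, and P2rx5, an ATP-gated channel, at least 2.39-fold lower with LPS and at least 2.85-fold lower without LPS in Mfp2-/- than naive cells. The limma LPS terms of Entpd5, Entpd6 and Pnp2 passed, at adjusted p-values of 0.043, 0.042 and 0.026, the last with dim values.

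Over the 48 genes, the genotype comparison with LPS gave 2 higher (1.67% of all genes) and 5 lower (4.64%) of 29 measured, and the untreated one 1 higher (3.01%) and 2 lower (4.05%) of 28. In the difference of the responses, 0 of 20 were higher, against 1.64% of all genes, and 2 were lower, against 2.99%, Adora3 at -1.19 and Slc29a3 at -1.02. Both use levels near the lowest signal above background, Adora3 in untreated cells and Slc29a3 in LPS-treated Mfp2-/- cells (-4.43 against -4.55). The limma fit tested 27 of the 48 and called 9 for the LPS term, 4 higher and 5 lower, against 21.7% of all genes (11.1% higher and 10.6% lower). It called 0 for the genotype term, against 0% of all genes, with 6 of the 27 at an unadjusted p under 0.05, as were 1688 of all 17377.

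**Figure D4:**
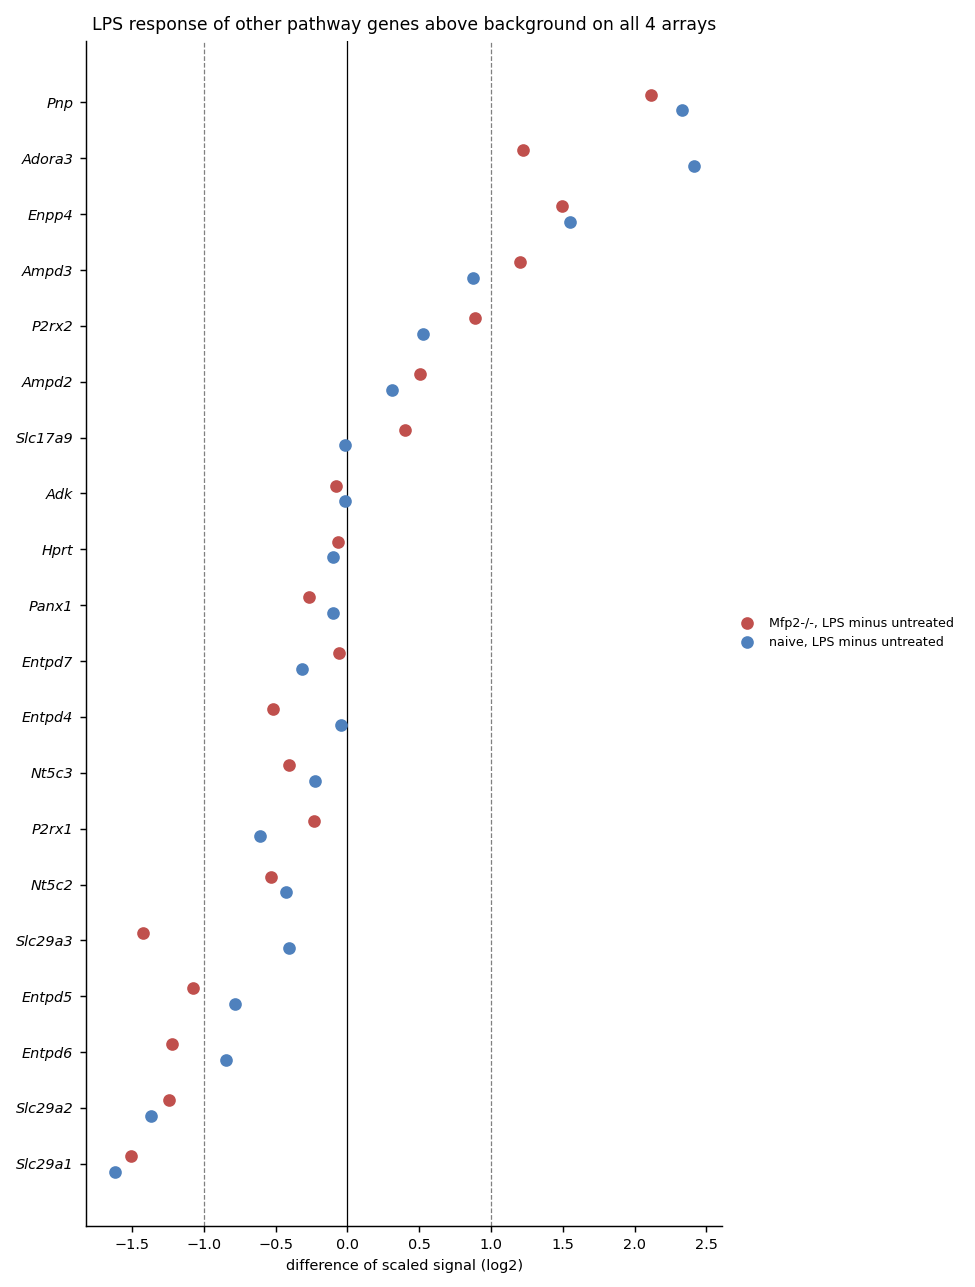
Difference of scaled level with LPS minus untreated (log2, x axis) for the 20 other pathway genes above background on all 4 arrays, in Mfp2-/- cells (red) and naive cells (blue), 1 array a group, ordered by the mean of both. Dashed lines mark 2-fold; Pnp is at 2.11 in Mfp2-/- cells and 2.33 in naive cells, and Slc29a1 at -1.51 and -1.62.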

How the data were processed

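Cy3-labelled total RNA of 4 cultures was put on Agilent mouse arrays of design 074809, per the labels and file headers. The deposited scanner values are linear spot intensity, already background subtracted and detrended within the array, per the file headers, which name Feature Extraction 10.7.1.1, whereas the submitters' processing notes name 9.5.1.1. The deposited flags are of the unit other, 0 or 1 a spot, and mark outliers, saturation and signal well above background. Also deposited was a series table of intensity, and between 56544 and 56578 of its 56605 probes an array lay within 0.01 log2 of quantile normalised probe means, so it was taken as linear and quantile normalised. Its median was 15.58 in each column, and it served as an alternative. All 4 arrays shared 1 slide and 1 scan time. Array position and group cannot be told apart.

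The values here are log2 of the processed signal minus the array's 75th percentile over non-control spots, which was 463 in LPS-treated Mfp2-/-, 480.2 in LPS-treated naive, 567 in untreated Mfp2-/- and 539 in untreated naive cells. Control and outlier spots were left out and spots of a probe averaged. A gene was represented by 1 probe. Probes with a value on all 4 arrays came first, a preference added after the data were seen, next any probe above background somewhere, and last the brightest by mean. The technical SD came from 7 to 9 probes spotted 10 times, with scaled log2 between -3 and 5. The additive fit used limma 3.58.1 in R 4.3.3 (lmFit, eBayes, Benjamini-Hochberg, genes above background on at least 2 arrays), and the rest Python 3.11.15, numpy 2.4.6, pandas 2.3.3 and matplotlib 3.10.9. The fit and the call rule were tested on simulated data.

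The 10 genes, the list of 48 and the marker lists were chosen with earlier results of these data known. Every one of the 10 is named, others of the 48 where they passed 2-fold in any pair of arrays, and for each of the 10 that was above background on all arrays and spanned 1 or more, the 2 genes of most similar pattern. Alternatives were normexp correction (offset 50), quantile normalisation, the series table and centring on 7 spike-in probes. A mean of probes, no filter on dim probes and 1.5-fold were further ones. For the fit, a trended prior and genes above background on all 4 arrays were tried too. The mean of probes took a gene's probes with a value on all 4 arrays that were above background on at least 1. The dim second probe of P2ry2 thus did not enter it. A probe above background on some arrays entered with its dim values too, as did the printed P2rx7 probe on both LPS-treated arrays.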

Additional observations from a re-analysis of the deposited data

Results flagged for a closer look

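On the probe that represents it, P2ry6, the UDP receptor, differed with LPS in opposite directions in the 2 genotypes. Its difference with LPS was -0.54 in Mfp2-/- cells and 0.72 in naive cells on the log2 scale, so that the response of Mfp2-/- cells minus that of naive cells was -1.26. The second probe of the gene gave -0.96, from -0.83 in Mfp2-/- cells and 0.13 in naive cells, and the naive value was about as large as the technical SD. With 1 array a group, the difference between the genotypes was not tested. The technical SD of this quantity, 0.19, covers repeated spots and not cultures.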

How the results depend on the processing

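No paired analysis was possible because each group is 1 array and the labels give no replicate numbers. Of the 14 gene differences of at least 2-fold, all 70 values under normexp, quantile normalisation, the series table, spike-in centring and the mean of probes kept their direction, and 67 stayed at 2-fold or more. The exceptions were P2rx4 in Mfp2-/- cells, at 0.83 under both spike-in centring and the mean of probes, and P2ry6 with LPS, at -0.80 under the mean of probes. The 70 values are not independent checks. The series table was itself taken as quantile normalised. For P2ry2, Adora2a and Adora2b only 1 probe entered the mean of probes, so it repeats the reported value. For LPS-treated Mfp2-/- against naive cells, the count of 1 became 2 under spike-in centring (P2rx7 and P2ry6), 0 under the mean of probes and 3 at 1.5-fold. For untreated cells the count of 1 became 2 at 1.5-fold. For the difference of the responses the count of 2 became 1 (P2ry6) under normexp, quantile normalisation, the series table and the mean of probes, and 4 at 1.5-fold. The causes were not tested. The LPS counts lay between 5 and 7, and the fit's LPS and genotype counts between 5 and 6 and at 0. The fit's 5 were of 6 genes tested, since Adora2a was left out where all 4 arrays had to be above background. Spike-in centring moved the median LPS difference of all genes by -0.24 in Mfp2-/- cells and -0.23 in naive cells. All genes split into 1475 higher and 3194 lower under it in Mfp2-/- cells, against 2046 and 2277, and into 1323 and 2223 in naive cells, against 1816 and 1528. Under normexp the counts of all genes were 1448 higher and 1304 lower with LPS in Mfp2-/- cells, and 1218 and 850 in naive cells. They were 117 and 336 for the genotypes with LPS (297 and 823 as reported), 205 and 319 without (555 and 745), and 137 and 238 for the difference of the responses (254 and 464). The fit's LPS calls over all genes, 3779 as reported, were 5977 under normexp and 6452 with a trended prior, and its genotype calls, 0 as reported, were 26, 72 and, above background on all 4 arrays, 9. Dim probes limit P2ry13, P2ry14, Entpd1 and untreated Adora2a.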

Other observations

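Genes with a pattern over the 4 arrays most like that of each purinergic gene were found by the root mean square distance of the centred scaled levels, among 11880 genes with a symbol above background on all arrays. For P2rx4 they were Acot9, a mitochondrial acyl-CoA thioesterase, at a distance of 0.036 and Dlgap4 at 0.048. For P2rx7 they were 2900026A02Rik at 0.045 and E2f1, a cell cycle transcription factor, at 0.055, and E2f1 was at -2.46 with LPS in Mfp2-/- cells and -1.26 in naive cells. For P2ry2 they were Ercc1, a DNA repair gene, at 0.047 and Plek, the platelet and leukocyte protein pleckstrin, at 0.055. For P2ry6 they were Haao at 0.073 and Sept9 at 0.077, and Haao also differed in sign, at -0.39 with LPS in Mfp2-/- cells and 0.79 in naive cells. For Adora2b they were Pilra at 0.10 and Flrt2 at 0.18, and for Pilra Mfp2-/- minus naive cells was -1.03 with LPS and -1.36 without. For Ada they were Oscp1 at 0.082 and Ak1, an adenylate kinase, at 0.090. With 4 arrays and this many candidates, close matches are a description of these arrays alone.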
